A study of Mus musculus with 8 samples.

Results

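Potassium channels let potassium leave a neuron, and so set its resting potential, end each spike and limit how often it fires. Voltage-gated channels join pore-forming subunits with cytoplasmic or membrane partners that alter their gating and transport. Calcium-activated channels hyperpolarize the membrane after spikes, inward rectifiers hold it near rest, and two-pore-domain channels carry the leak. The genes described here are those whose single symbol in the probe annotation starts with Kcn, without Kcnn2, Kcnn3, Kcnd2, Kcnip2 and Kcne2. Of 16383 probes with values, 59 met this rule, and they stood for 49 of 11011 genes with a symbol. All 49 genes had more than 100 intensity units on at least 2 arrays and were tested, and 42 exceeded 100 on all 8 arrays. For the 10 genes with more than 1 probe, the probe with the highest mean over the 8 arrays was used unless another is named.

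RNA came from the right hippocampus of male mice of 6 to 8 weeks, in 4 groups of 2 arrays. Wild-type mice were C57BL/6J, and the knockout had been bred onto a C57BL/6 background. KTR were Cav3.2 knockout mice trained by trace fear conditioning (TFC), in which an empty interval separates a tone from a foot shock, and then tested for contextual memory. KNR were naïve knockout mice, WTR were trained wild-type mice and WNR naïve wild-type mice. Cav3.2 is the pore of a low-threshold calcium channel, encoded by Cacna1h, and the knockout mice lack it from conception and in every cell. Tissue of 3 mice was pooled for each group. Nothing in the sources says that both arrays of a group came from separate pools, so the p-values cover array-to-array spread alone, and that spread may be technical. In whole tissue, fewer cells of a type and less RNA per cell cannot be told apart.

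Intensities had been quantile normalized and are on a linear scale, with a median of 485 on every array and 5.76% to 5.9% of probes below 100. The number of arrays limits the precision. Differences are log2 values after a floor of 100, with the SE of a limma fit of all 8 arrays, and p-values were adjusted over 16204 probes with Benjamini-Hochberg and called under 0.05. Cacna1h read 1036 and 1439.5 in KTR arrays, 1550.5 and 1489 in KNR arrays, 2084 and 2339.9 in WTR, and 2576 and 2385 in WNR. It was lower in KNR than in WNR (log2 -0.71, adjusted p = 0.049), and the difference of -0.85 in KTR vs WTR did not pass (adjusted p = 0.053). Where its probe lies relative to the deletion is not given in the sources used here. All 6 measured neuronal markers exceeded 200 on at least 1 array, as did all 7 measured astrocyte markers.

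Of the 49 genes, 43 passed in none of the 4 comparisons nor in the interaction, and 40 stayed within 1.5-fold in all 4 comparisons. The 6 that passed were Kcnd1, Kcnk2, Kcnab2, Kcnab3, Kcnj11 and Kcnj16. In KTR vs KNR 5 genes passed (1 higher, 4 lower), or 10.2%, where 15.9% of all probes did (6.6% higher, 9.29% lower). In KTR vs WTR 2 passed (1 higher, 1 lower), or 4.08%, where 2.0% of all probes did (0.741% higher, 1.26% lower). In WTR vs WNR 2 passed, both lower, or 4.08% against 6.25% of all probes (3.25% higher, 2.99% lower). In KNR vs WNR no gene passed with limma, against 8.02% of all probes (4.7% higher, 3.33% lower). A call of the SAM type found 0 there, where it called only 44 of 15829 probes (0.278%). The interaction, which is (KTR minus KNR) minus (WTR minus WNR), passed for 1 gene, higher, or 2.04%, against 5.18% of all probes (1.83% higher, 3.35% lower). These shares lay below those of all probes except in KTR vs WTR. An unadjusted p under 0.05 was reached by 18 genes in KTR vs KNR (36.6% of all probes), 12 in KTR vs WTR (22.9%), 6 in WTR vs WNR (26.6%), 5 in KNR vs WNR (29.0%) and 12 in the interaction (28.8%). With limma on only the 4 arrays of a comparison almost nothing on the array passed, namely 1 of 15779 probes in KTR vs WTR and 0 in each of the other 3, and so no potassium channel gene. In those fits an unadjusted p under 0.05 was reached by 14 of 47 genes in KTR vs KNR (33.9% of all probes), 10 of 47 in KTR vs WTR (21.6%), 5 of 49 in WTR vs WNR (24.9%) and 4 of 47 in KNR vs WNR (27.3%). Leaving out 1 array also lowered the number of calls over all probes. The 2575 probes called in KTR vs KNR became 28 without KTR replicate 2, 1 without KNR replicate 1 and 1154 to 1632 without any of the others, and in KTR vs WTR 324 became 0 to 47. In WTR vs WNR 1012 became 0 to 104, and in the interaction 839 became 1 to 96. The calls of the 6 genes on their brightest probes are therefore given below with differences under the same omissions. Calls of other probes, of channel partners and of cell type markers are given from the fit of all 8 arrays only.

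**Figure D1:**
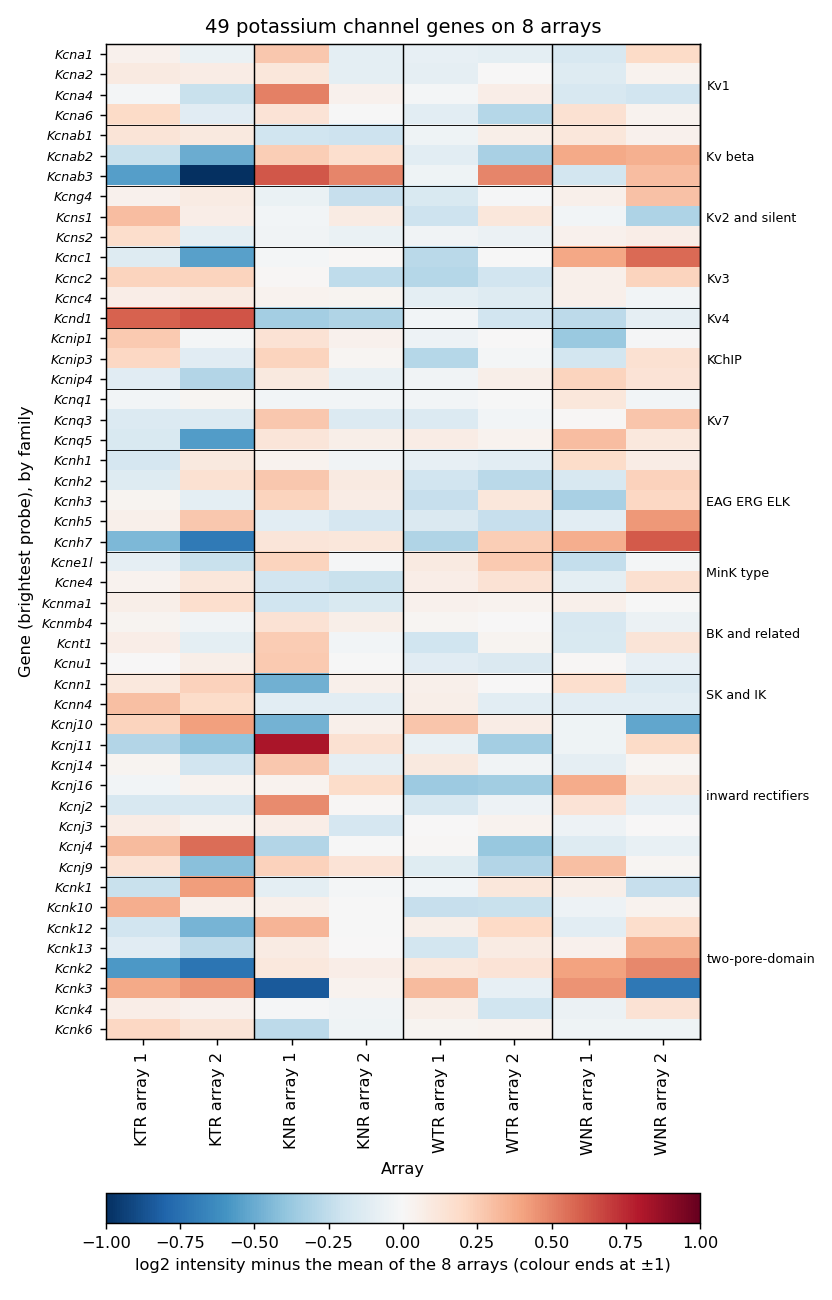
Log2 intensity (floor 100) of each of the 49 genes minus its mean over the 8 arrays, as colour, with genes by family in rows and arrays in columns. Kcnd1 is high and Kcnk2 and Kcnab3 are low on both KTR arrays, while Kcnj11 is high on 1 KNR array.

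As a list the genes shifted little. Their median log2 difference was -0.04 in KTR vs KNR, 0.07 in KTR vs WTR, -0.09 in WTR vs WNR and -0.03 in KNR vs WNR, and the medians of all probes lay within 0.01 of zero. Taken without sign, the median difference was 0.23 in KTR vs KNR against 0.26 for all probes, and 0.14 in KTR vs WTR against 0.19. It was 0.14 in WTR vs WNR against 0.21, and 0.15 in KNR vs WNR against 0.22. The arrays of KTR and KNR did not overlap in 30 of 49 genes, against 67.5% of all probes. They did not overlap in 27 genes in KTR vs WTR (55.1% of all probes), 26 in WTR vs WNR (56.5%) and 20 in KNR vs WNR (58.4%).

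**Figure D2:**
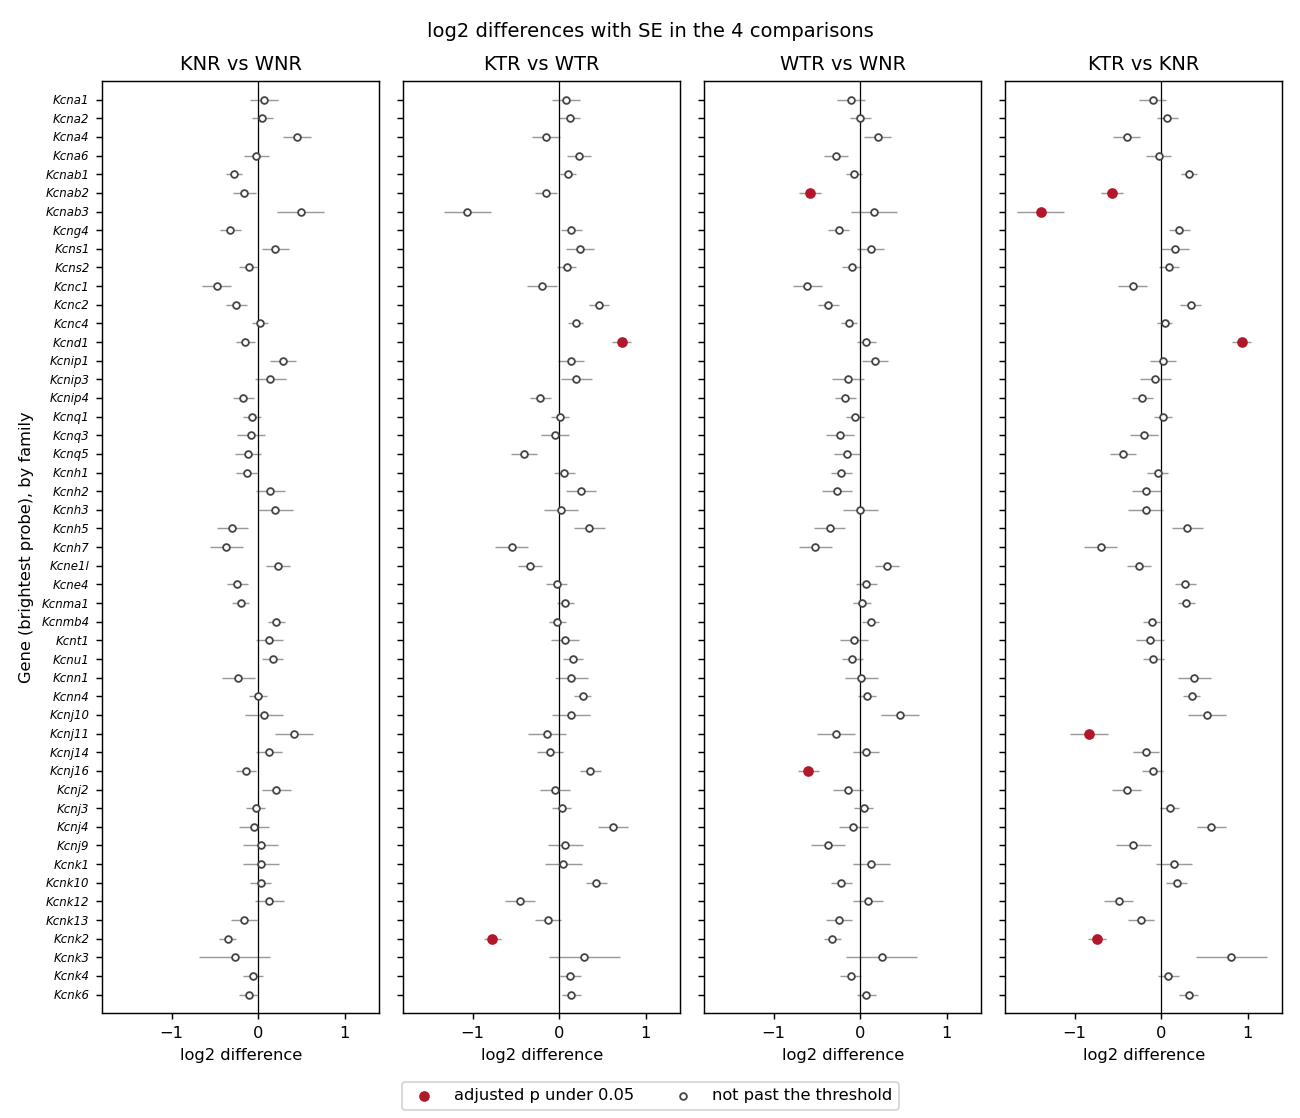
Log2 difference of each gene in the 4 comparisons, as points with the SE of the fit, filled where the adjusted p was under 0.05. In KTR vs KNR the differences run from -1.39 for Kcnab3 to 0.93 for Kcnd1, and in KNR vs WNR no point is filled.

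Kcnd1 encodes a pore subunit of the Kv4 family, whose A-type current starts below spike threshold and inactivates fast. It was the 1 gene whose training difference passed the test between genotypes. Its intensity was 688 and 707 in KTR arrays, 361 and 372 in KNR arrays, 450.4 and 400.1 in WTR, and 382 and 430.4 in WNR. Both KTR arrays lay above the 6 others, and the WTR and WNR arrays overlapped. Kcnd1 rose in KTR vs KNR by 1.9-fold (log2 0.93 ± 0.11 SE, adjusted p = 0.014) and in KTR vs WTR by 1.64-fold (0.72 ± 0.11 SE, adjusted p = 0.039). WTR and WNR differed by 0.07 (adjusted p = 0.76), and the interaction was 0.86 ± 0.16 SE (adjusted p = 0.04).

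The other, dimmer probe of Kcnd1 read 192 and 334 in KTR arrays, 169.6 and 259 in KNR arrays, 313 and 211 in WTR, and 289 and 276 in WNR. Its arrays overlapped between KTR and both KNR and WTR, with log2 differences of 0.27 in KTR vs KNR (adjusted p = 0.56) and -0.02 in KTR vs WTR (adjusted p = 0.99). With both probes averaged, none of the 3 calls of Kcnd1 passed (0.6, adjusted p = 0.075 in KTR vs KNR, 0.35, adjusted p = 0.33 in KTR vs WTR, and 0.64, adjusted p = 0.18 for the interaction). On the brighter probe, the call in KTR vs KNR was lost without KTR replicate 2 (0.91, adjusted p = 0.069) or KNR replicate 1 (0.91, adjusted p = 0.12). With any 1 of the 8 arrays left out, the difference in KTR vs WTR stayed at 0.63 to 0.8 and the interaction at 0.78 to 0.95, but neither call passed (adjusted p = 0.065 to 0.22 and 0.064 to 0.14).

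**Figure D3:**
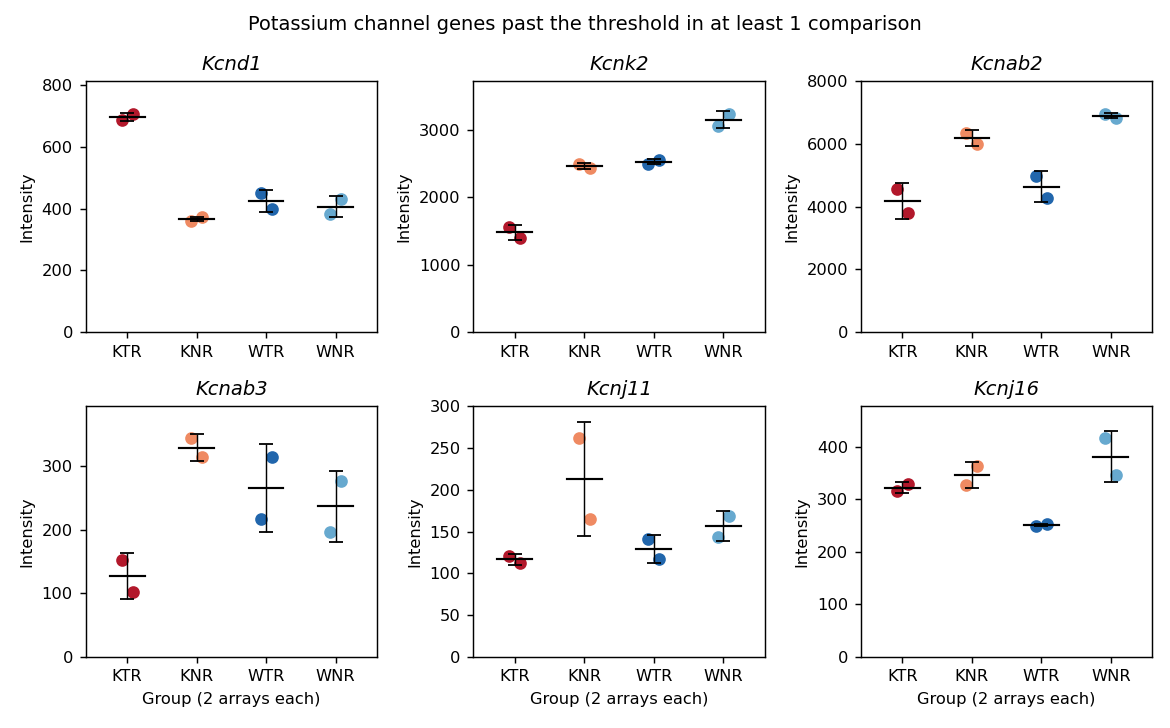
Intensity on linear axes from 0 for the 6 genes that passed in at least 1 comparison; points are arrays, the horizontal bar is the mean of 2 arrays and the error bar their SD. Kcnd1 averages 697 in KTR and between 366 and 425 in the other groups, and all trained arrays of Kcnab2 lie below all naïve arrays.

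Kcnk2 encodes TREK-1, a two-pore-domain leak channel that opens with membrane stretch, warmth and polyunsaturated lipids and that G-protein-coupled receptors can close. Its intensity was 1562 and 1402 in KTR arrays, 2498 and 2436 in KNR arrays, 2498 and 2551 in WTR, and 3062 and 3236 in WNR. Both KTR arrays were lower than all others, both WNR arrays were higher than all others, and KNR and WTR lay side by side between them. Kcnk2 fell in KTR vs KNR (log2 -0.74 ± 0.1 SE, adjusted p = 0.017) and in KTR vs WTR (-0.77 ± 0.1 SE, adjusted p = 0.026), 2 comparisons that share the KTR arrays. The differences of -0.35 in KNR vs WNR (adjusted p = 0.072) and -0.32 in WTR vs WNR (adjusted p = 0.1) did not pass, nor did the interaction (-0.42, adjusted p = 0.11). The difference in KTR vs KNR was -0.66 without KTR replicate 2 (adjusted p = 0.083) and -0.72 without KNR replicate 1 (adjusted p = 0.12). In KTR vs WTR it stayed at -0.85 to -0.69 with any 1 of the 8 arrays left out, and the call no longer passed (adjusted p = 0.059 to 0.19).

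Of the other two-pore-domain genes none passed in any comparison. Kcnk3, an acid-sensitive TASK channel, read 956 and 998 in KTR arrays, 410.5 and 753 in KNR arrays, 914 and 694 in WTR, and 1002 and 448 in WNR. Within KNR and within WNR its arrays were far apart, and its difference of 0.81 in KTR vs KNR had an SE of 0.41 (adjusted p = 0.19). Kcnk1, the weakly conducting TWIK-1 channel, lay between 5409 and 8481, with the highest value on 1 KTR array, and its differences in the 4 comparisons were 0.03 to 0.15. Kcnk12, a relative of the halothane-inhibited channel Kcnk13, differed by -0.49 in KTR vs KNR (adjusted p = 0.086).

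The Kv beta subunits are cytoplasmic proteins that bind Kv1 channels, carry them toward the axon and in some cases plug the open pore. Kcnab2, the main axonal form, read 4583 and 3789.6 in KTR arrays, 6366 and 6013 in KNR arrays, 4984 and 4285 in WTR, and 6969 and 6849 in WNR. All 4 trained arrays lay below all 4 naïve arrays. Kcnab2 fell in both training comparisons, which share no array: in KTR vs KNR by 1.48-fold (log2 -0.57 ± 0.13 SE, adjusted p = 0.035) and in WTR vs WNR by 1.49-fold (-0.58 ± 0.13 SE, adjusted p = 0.049). The interaction was 0.01 ± 0.18 SE (adjusted p = 0.98), and between genotypes it differed by -0.15 in KTR vs WTR (adjusted p = 0.54) and by -0.16 in KNR vs WNR (adjusted p = 0.46).

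Kcnab3, another beta subunit, read 153 and 102 in KTR arrays, 344 and 314 in KNR arrays, 217 and 315 in WTR, and 197 and 276 in WNR. Both KTR arrays were lower than all others, KTR replicate 2 lay close to the floor, and the WTR and WNR arrays overlapped. It fell by 2.63-fold in KTR vs KNR (log2 -1.39 ± 0.27 SE, adjusted p = 0.026), while -1.06 in KTR vs WTR (adjusted p = 0.081) and an interaction of -1.56 ± 0.38 SE (adjusted p = 0.057) did not pass. On the brightest probes it was the only member beyond 2-fold, in KTR vs KNR (4.3% of all probes) and KTR vs WTR (1.12%), while none was in WTR vs WNR (0.383%) or KNR vs WNR (1.31%). Kcnab1, whose N-terminus can plug Kv1 pores, read 9884 and 9709 in KTR arrays, 7871 and 7863 in KNR arrays, 8799 and 9438 in WTR, and 9798 and 9353 in WNR, and its difference of 0.32 in KTR vs KNR did not pass (adjusted p = 0.062).

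With single arrays left out these differences kept their direction, and some calls no longer passed. Kcnab3 in KTR vs KNR differed by -1.1 without KTR replicate 2 (adjusted p = 0.12), -1.33 without KNR replicate 1 (adjusted p = 0.16) and -1.46 without KNR replicate 2 (adjusted p = 0.057). Kcnab2 in KTR vs KNR differed by -0.43 without KTR replicate 2 (adjusted p = 0.16), -0.53 without KNR replicate 1 (adjusted p = 0.19) and -0.61 without KNR replicate 2 (adjusted p = 0.071), and by -0.57 without either WNR array (adjusted p = 0.055). In WTR vs WNR Kcnab2 stayed at -0.69 to -0.47 with any 1 of the 8 arrays left out and did not pass (adjusted p = 0.055 to 0.2).

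Promoters are shown for Kcnk2 and Kcnab2, which both fell in KTR vs KNR and were the genes past the threshold there that the promoter table held. They are the 250 bases upstream of 1 annotated start of each gene (RefSeq, GRCm38.p6, minus strand), chosen after the values were seen as the start with a GC box. Capitals mark the GC box, GGGCGG on either strand.
Kcnk2, chr1:189343708-189343957: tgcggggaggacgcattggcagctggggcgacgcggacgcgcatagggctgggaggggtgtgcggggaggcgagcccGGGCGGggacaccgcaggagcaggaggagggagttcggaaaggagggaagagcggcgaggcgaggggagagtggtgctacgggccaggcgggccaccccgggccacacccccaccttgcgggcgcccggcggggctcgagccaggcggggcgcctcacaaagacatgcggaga
Kcnab2, chr4:152477550-152477799: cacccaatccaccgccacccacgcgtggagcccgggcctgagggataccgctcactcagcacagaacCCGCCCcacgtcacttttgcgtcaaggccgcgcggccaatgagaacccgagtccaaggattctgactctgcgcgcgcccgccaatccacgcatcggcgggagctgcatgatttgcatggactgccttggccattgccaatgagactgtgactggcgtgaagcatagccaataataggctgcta
The promoter table held 36 of the 49 genes, with 57 starts. A GC box stood in 26 of these 57 windows (45.6%), against 32.7% of 32851 windows of all genes. The letters TATAAA stood in 2 (3.51%, against 12.4%) and the cyclic AMP response element TGACGTCA in 0 (against 1.55%), each searched on both strands. A match of letters is a description of the sequence only.

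The Kv1 pore genes did not pass on their brightest probes. Kcna2, a main pore subunit of axons, read 1102 and 1090.1 in KTR arrays, 1121 and 968 in KNR arrays, 974 and 1039 in WTR, and 949 and 1060.4 in WNR, with differences of 0.0 to 0.12. Kcna1, mutated in human episodic ataxia, lay between 170 and 230.1, and Kcna4, an inactivating pore subunit, between 99.2 and 166. Kcna6 read 1679 and 1358 in KTR arrays, 1620.2 and 1463 in KNR arrays, 1364 and 1209 in WTR, and 1629.6 and 1502 in WNR on its brightest probe, with a difference of -0.03 in KTR vs KNR (adjusted p = 0.9). Its other probe read 363 and 257 in KTR arrays, 837 and 797 in KNR arrays, 477 and 727 in WTR, and 532 and 825 in WNR, so that both KTR arrays lay below all others, and it fell in KTR vs KNR (log2 -1.42 ± 0.28 SE, adjusted p = 0.028).

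**Figure D4:**
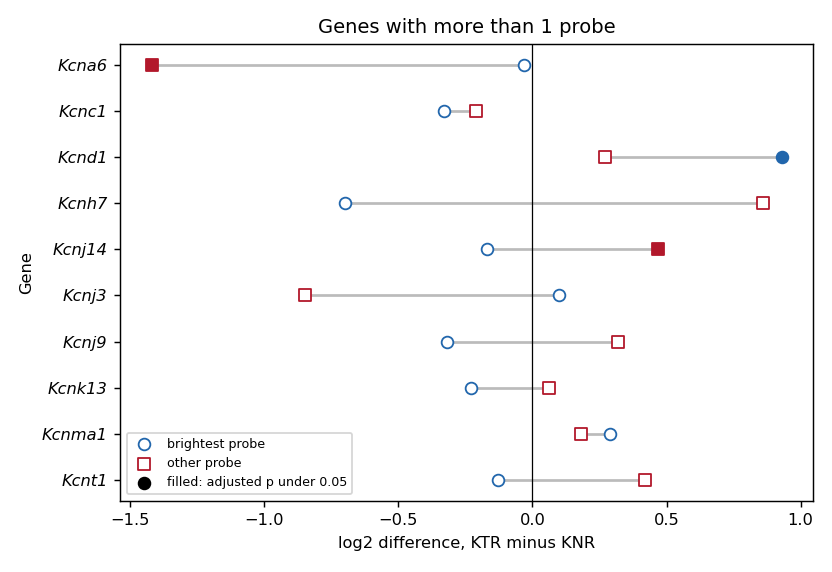
Log2 difference of KTR minus KNR for the 10 genes with more than 1 probe, with the brightest probe as a circle, the other as a square, and filled marks where the adjusted p was under 0.05. The 2 probes lie on the same side of 0 in 4 genes, and those of Kcnh7 lie 1.56 apart.

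Probes of the same gene often differed. They had the same sign in 4 of 10 genes in KTR vs KNR, 5 in KTR vs WTR, 2 in WTR vs WNR and 5 in KNR vs WNR, and the median gap between them was 0.64 in KTR vs KNR. Kcnj14, a strong inward rectifier, passed in KTR vs KNR on its dimmer probe (209 and 189 in KTR arrays, 138 and 148 in KNR arrays, 186 and 176 in WTR, and 194 and 168 in WNR, log2 0.47 ± 0.12 SE, adjusted p = 0.04), but not on its brighter probe (-0.17, adjusted p = 0.43). Which transcripts each probe reads is not given in the sources used here.

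Among the inward rectifiers, Kcnj11 encodes the pore of an ATP-sensitive channel, which closes when ATP is plentiful. It read 121 and 112 in KTR arrays, 262 and 165 in KNR arrays, 141 and 117 in WTR, and 144 and 169 in WNR. Both KTR arrays lay below both KNR arrays, and they overlapped those of WTR. Kcnj11 fell by 1.78-fold in KTR vs KNR (log2 -0.83 ± 0.22 SE, adjusted p = 0.048). Its KTR arrays lay near the floor of 100, and only 1 of the 8 arrays exceeded 200. At the same difference the call did not pass with limma on all 16383 probes with values (adjusted p = 0.06). Nor did it pass with the replicate number as a block (adjusted p = 0.059). Without KNR replicate 1, the highest of the 8 arrays, the difference was -0.5 (adjusted p = 0.21). The call was also lost without either KTR array (-0.89 and -0.78, adjusted p = 0.096 and 0.2), and, at an unchanged -0.83, without either WTR array (adjusted p = 0.068) or either WNR array (adjusted p = 0.066 and 0.065). It was kept without KNR replicate 2 (-1.16, adjusted p = 0.03).

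Kcnj16 encodes a subunit that joins Kcnj10 in the glial inward rectifier, which takes up potassium around neurons. It read 316 and 329 in KTR arrays, 328 and 364 in KNR arrays, 249 and 252 in WTR, and 416 and 347 in WNR. Both WTR arrays lay below the 6 others. Kcnj16 fell by 1.51-fold in WTR vs WNR (log2 -0.6 ± 0.12 SE, adjusted p = 0.039). With any 1 of the 8 arrays left out the difference stayed at -0.73 to -0.47, and the call no longer passed (adjusted p = 0.062 to 0.16). It differed by -0.1 in KTR vs KNR (adjusted p = 0.57), and the interaction of 0.5 ± 0.17 SE did not pass (adjusted p = 0.11). Kcnj10 read 730.1 and 829 in KTR arrays, 450.0 and 647 in KNR arrays, 756 and 656 in WTR, and 606 and 434 in WNR, and its difference of 0.46 in WTR vs WNR did not pass (adjusted p = 0.24). Of 7 measured astrocyte markers none passed in WTR vs WNR with limma, and 2 had an unadjusted p under 0.05. They went both ways, with Gja1 at -0.32 (adjusted p = 0.12) and Gjb6 at 0.4 (adjusted p = 0.052), and their median deviation from the mean of the 8 arrays was -0.04 and 0.06 in WTR against -0.05 and 0.18 in WNR (log2). Their part in the result was not tested.

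Other inward rectifiers did not pass. Kcnj4, a strong rectifier of forebrain neurons, read 2269.7 and 2684 in KTR arrays, 1491 and 1819.9 in KNR arrays, 1846 and 1402 in WTR, and 1669.9 and 1732 in WNR. Both KTR arrays lay above the 6 others, with differences of 0.58 in KTR vs KNR (adjusted p = 0.059) and 0.62 in KTR vs WTR (adjusted p = 0.099). Kcnj3 and Kcnj9, subunits of the channel that G proteins open, differed on their brightest probes by at most 0.1 and by -0.37 to 0.07 in the 4 comparisons. In KTR vs KNR Kcnj9 differed by -0.32 on its brightest probe (adjusted p = 0.27) and by 0.32 on its other probe (adjusted p = 0.079). The other probe of Kcnj3 read 273 and 209 in KTR arrays, 566 and 329 in KNR arrays, 456 and 586 in WTR, and 544 and 622 in WNR. Both its KTR arrays lay below the 6 others, and its differences of -1.11 in KTR vs WTR (adjusted p = 0.08) and -0.85 in KTR vs KNR (adjusted p = 0.072) did not pass. Kcnj2 lay near the floor, between 74.7 and 155.

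No gene of the remaining voltage-gated families passed. Kcnc1, a Kv3 subunit of fast-spiking interneurons, read 806 and 605 in KTR arrays, 871 and 886 in KNR arrays, 730.3 and 879 in WTR, and 1152 and 1306 in WNR. Both WNR arrays lay above the 6 others, and the differences of -0.61 in WTR vs WNR (adjusted p = 0.073) and -0.48 in KNR vs WNR (adjusted p = 0.11) did not pass. On its other, dimmer probe both WNR arrays (143 and 156) lay below KNR replicate 1 (171). That probe differed by -0.35 in WTR vs WNR (adjusted p = 0.32) and -0.07 in KNR vs WNR (adjusted p = 0.84). Of 6 measured interneuron markers Pvalb and Npy were higher in WTR vs WNR and Npy in KNR vs WNR. Gad2 went the other way and did not pass, at -0.45 in WTR vs WNR (adjusted p = 0.057) and -0.39 in KNR vs WNR (adjusted p = 0.069). Summed intensity, most of it Sst, was 46500 and 44652 in KNR and 48365 and 47279 in WTR, against 37161 and 37027 in WNR. Their part in the result was not tested. Kcnc2, also of interneurons, lay near the floor, between 116 and 165. Its interaction of 0.71 ± 0.18 SE did not pass (adjusted p = 0.059).

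Kcnh7, an ERG-type channel, read 522 and 435 in KTR arrays, 774 and 769.9 in KNR arrays, 578 and 842 in WTR, and 915 and 1087 in WNR. It was lowest on both KTR arrays, with a difference of -0.7 in KTR vs KNR (adjusted p = 0.053), and its other probe differed by 0.86 (adjusted p = 0.26). Kcnq5, which adds to the M-current that muscarinic receptors close, differed by -0.44 in KTR vs KNR (adjusted p = 0.086), and Kcnq3 lay near the floor, between 81.4 and 133. Kcnip4, a calcium-binding subunit of Kv4 channels, read 2567 and 2267 in KTR arrays, 2973 and 2643 in KNR arrays, 2719.9 and 2897 in WTR, and 3246 and 3059 in WNR, with differences of -0.22 to -0.17 in the 4 comparisons. Kcnip1 and Kcnip3 of the same family had adjusted p-values of 0.26 or more. Kcns2, a silent subunit that conducts only together with other pore subunits, differed by -0.11 to 0.09, and Kcne1l, a small membrane subunit, by -0.34 to 0.31.

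Among calcium-activated channels, Kcnma1, the pore of the large-conductance BK channel, read 5021 and 5421 in KTR arrays, 4191 and 4347 in KNR arrays, 4978 and 4946 in WTR, and 5000.0 and 4809 in WNR. Both KNR arrays lay below the 6 others, and the difference of 0.29 in KTR vs KNR did not pass (adjusted p = 0.077). On its other probe the KNR arrays (3272 and 3356) lay above both WTR arrays (3222 and 3188). Kcnma1 differed by 0.18 in KTR vs KNR on that probe (adjusted p = 0.26). Kcnmb4, its neuronal beta subunit, differed by -0.11 in the same comparison (adjusted p = 0.44). Kcnn1, a small-conductance channel, differed by 0.38 (adjusted p = 0.18). Kcnt1, which sodium activates, differed by -0.13 (adjusted p = 0.57), and by 0.42 on its other probe (adjusted p = 0.26).

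A list of genes that bind, anchor or gate potassium channels, or carry related currents, held 34 measured and 33 tested genes. In KTR vs KNR 4 passed, all lower, or 12.1% against 15.9% of all probes. In WTR vs WNR 2 passed (Dlg1 and Rgs7bp, both lower), or 6.06% against 6.25%, and in KNR vs WNR 2 (Vapa higher and Snx27 lower), or 6.06% against 8.02%. In KTR vs WTR and in the interaction 0 passed with limma, with 5 and 8 at an unadjusted p under 0.05. Abcc8, the sulfonylurea receptor that completes the ATP-sensitive channel of Kcnj11, fell in KTR vs KNR (166 and 195 in KTR against 336 and 294 in KNR, log2 -0.8 ± 0.18 SE, adjusted p = 0.034). Cntn2, a cell adhesion molecule of the axonal Kv1 complex, fell as well (470 and 452 in KTR against 767 and 714 in KNR, -0.68 ± 0.13 SE, adjusted p = 0.027). So did Adam22 (161 and 118 in KTR against 247 and 202 in KNR, -0.7 ± 0.17 SE, adjusted p = 0.04) and the scaffold Dlg2 (1253 and 1206 in KTR against 1597 and 1655 in KNR, -0.4 ± 0.1 SE, adjusted p = 0.043), both also found with Kv1 channels. Others of the same complexes pointed up and did not pass: Cntnap2, which binds Cntn2, at 0.33 (adjusted p = 0.14), and Abcc9, the other sulfonylurea receptor, at 0.52 (adjusted p = 0.052). These pairings with Kcnj11 and the Kv1 complex were picked out after the values were seen.

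Marker sums moved with some of the comparisons. For the CA1 pyramidal layer the sum of 4 measured markers was 4788 and 4008 in KTR against 7129 and 6185 in KNR, with 1 marker lower, and 1 was lower in KTR vs WTR. For endothelium and pericytes the sum of 7 was 4516 and 4831 in KTR against 5678 and 5878 in KNR, with 3 lower and 1 higher, and 2 were lower and 1 higher in KTR vs WTR. For choroid plexus 3 of 8 tested markers were higher and 1 lower in KTR vs KNR, and the sum was 30132 and 36951 in WTR against 19574 and 18827 in WNR, with 2 higher. For oligodendrocytes the sum was 61874 and 55595.5 in KTR against 74451 and 73264 in KNR, with 1 marker lower. WNR stood lowest in some sums and highest in others. It was highest for astrocytes (59372 and 59578) and dentate gyrus (26711 and 26001.5). For meninges the sum of 7 was 50693 and 50911 in KNR and 45648 and 48027 in WTR, against 36436 and 37672 in WNR, with 4 higher and 1 lower in KNR vs WNR and 2 higher in WTR vs WNR. For CA2 and CA3 the sum of 5 was 26028 and 26760 in WTR against 16563 and 18177 in WNR, with 1 higher. The median log2 difference of these markers was -0.01, so the sum did not reflect the typical marker. Their part in the differences of the potassium channel genes was not tested. Kcnd3, Kcnj6 and Kcnk9 were not analysed here.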

How the data were processed

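Total RNA of the right hippocampus was hybridized in 1 colour (Cy5) to Mouse Whole Genome OneArray chips. The deposited values are intensities on a linear scale that the authors had quantile normalized. Their methods state a floor of 100 before this step, but the deposited values reach down to 4.18, so the floor was set again here. Of 29922 probes 13539 had no value and were left out. Symbols came from the platform annotation, in which 13072 probes with values had 1 symbol and 3311 none. For 2101 of these probes the symbol was an older synonym and was replaced by the current RefSeq symbol. Members were picked by the annotated symbol, while the count of all genes, the brightest probes and the other gene lists used the updated symbols. The members and gene lists were chosen with earlier results of these data known.

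Log2 intensities (floor 100) of probes above 100 on at least 2 arrays were fitted with limma 3.58.1 (R 4.3.3), with a mean for each group over all 8 arrays and no covariate, and p-values were adjusted with Benjamini-Hochberg over 16204 probes. The study compared 4 arrays at a time with SAM. The fit of all 8 arrays was chosen knowing that fits of 4 arrays call almost no probe in these data, and both are among the alternatives. The SAM-type call (q under 0.01 and over 2-fold) first averaged its false calls over the label orders and could call nothing, so their median was used after that was seen. Named were genes past the threshold, the largest differences among genes above 200 on at least 2 arrays, the brightest gene of each family and a list of hippocampal channels. Further probes of genes that passed were named too, and the second probes of Kcna6, Kcnc1, Kcnj3, Kcnj9, Kcnj14, Kcnh7, Kcnma1 and Kcnt1 after their values were seen. Alternatives changed the floor, filter, normalization, arrays, replicate block and use of probes.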

Additional observations from a re-analysis of the deposited data

Results flagged for a closer look

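The training difference of Kcnd1 differed between genotypes, with an interaction of 0.86 ± 0.16 SE on the log2 scale (limma, adjusted p = 0.04). KTR minus KNR was 0.93 and WTR minus WNR was 0.07. The dimmer probe of Kcnd1 gave an interaction of 0.41 ± 0.45 SE (adjusted p = 0.58).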

How the results depend on the processing

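The 10 calls of single genes kept their sign under every alternative run, in 176 of 176 values, and stayed past the threshold in 78 of them. Many alternatives left the difference itself unchanged, as did the replicate block and the omission of an array from another group. All reused the arrays that gave the calls, so the kept sign is no independent check. Counts of genes called are given with those of all probes in the same setting, and the cause of the changes was not tested. For KTR vs KNR, 5 genes in the fit of all 8 arrays (2575 probes) became 0 with the 4 arrays alone (0 probes), 0 with KNR replicate 1 and KTR replicate 2 both left out (0 probes), 1 with the SAM-type call (Kcnab3, of 341 probes), and 0 to 5 with single arrays left out (0 without KTR replicate 2 or KNR replicate 1, 3 without either WNR array). They became 7 with a floor of 50 (2501 probes) or an offset of 16 in place of the floor (2657), and 6 among probes above 200 on all 8 arrays (2014). Where an array is left out, the lone array of its group is assumed to vary like the others. In KTR vs WTR, 2 (324 probes) became 0 with the 4 arrays alone (1 probe), the same pair of arrays left out (0), the SAM-type call (27) or any single array left out, and 1 with probes averaged (167). In WTR vs WNR, 2 (1012 probes) became 1 with a floor of 50 (830) or an offset of 16 (942), and 0 with the 4 arrays alone (0), the same pair left out (0), the SAM-type call (14) or any single array left out. The interaction went to 0 genes with the same pair left out (0 probes), with probes averaged (682) and with any single array left out. In KNR vs WNR, 1 of 32 genes passed among probes above 200 on all 8 arrays, where 16.6% of all probes did.

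The median log2 difference in KNR vs WNR was -0.05 with a floor of 50, with the same pair left out or with probes averaged, -0.11 above 200 on all arrays, and -0.05 to -0.01 with single arrays left out. In KTR vs KNR it changed sign to 0.06 with the same pair left out and to 0.02 with probes averaged, and ran from -0.07 to 0.04 with single arrays left out. It was -0.07 with probes averaged in WTR vs WNR, and for the interaction 0.16 with the same pair left out and 0.01 to 0.13 with single arrays left out.

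With the replicate number as a block, 4 genes were called in KTR vs KNR (1442 probes), and 0 in KTR vs WTR (63 probes), WTR vs WNR (0), KNR vs WNR (5) and the interaction (1). Deviations of same-numbered arrays correlated at 0.44 for KTR and KNR and 0.274 for WTR and WNR, and at -0.385 to -0.244 for the 4 pairs of groups of different genotype. Not every pair correlated positively, so the numbers were not used to pair arrays, and whether they mark a shared batch within a genotype was not tested.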
